A study of Mus musculus with 9 samples.

Results

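The cytochrome P450 genes of the mouse were followed in sorted cells of bile duct organoids. Members were chosen by name: every gene whose symbol begins with Cyp and a digit, apart from the sterol demethylase gene Cyp51 and the symbols marked as pseudogenes. Of 32137 genes in the deposited tables, 89 had such a symbol, and 78 were kept after Cyp51 and 10 pseudogenes were left out. All libraries came from organoids of a single male mouse of mixed genetic background and genotype Axin2CreERT2+/-; R26-LSL-tdTom+/-, in which a Cre recombinase under the control of the Wnt target gene Axin2 needs tamoxifen to enter the nucleus and then switches on the red fluorescent protein tdTomato for good. Every culture, controls included, was expanded for 2 to 4 days, differentiated for 11 days and given 3 uM dexamethasone and 500 nM 4-hydroxytamoxifen (4-OHT) for the last 24 h. R-spondin 1 (Rspo1), a secreted protein that strengthens Wnt signalling, was added at 100 ng/ml in those 24 h or left out. Cells were sorted into 3 groups of 3 libraries: tdTomato-negative cells without Rspo1 (untreated), tdTomato-negative cells with Rspo1 (Rspo1-negative) and tdTomato-positive cells with Rspo1 (Rspo1-positive). Replicates 1, 2 and 3 of each group were passages 5, 6 and 10 of the organoid line. tdTomato-positive cells without Rspo1 were not analysed here, so Rspo1-positive and untreated cells differ in both treatment and sorting gate, and these cannot be told apart. With 1 animal, p-values measure the spread between repeated cultures and not between animals. With passage as a block, that spread leaves out differences shared by the 3 groups of a passage.

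Cytochrome P450 enzymes are heme proteins that insert an oxygen atom into fat-soluble molecules. Most sit in the endoplasmic reticulum and draw electrons from P450 reductase, while a smaller set in mitochondria draws them from ferredoxin. In the liver, hepatocytes carry the drug-oxidising families and the enzymes that turn cholesterol into bile acids, with their highest levels around the central vein, where Wnt signalling is active. Other members make or clear hormones and signals such as steroids, vitamin D, eicosanoids and retinoic acid. The epithelium of the bile ducts is known for far lower levels of the drug-oxidising enzymes than hepatocytes.

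Total counts ranged from 23423979 to 37351448 per library. All 10 biliary markers examined were above 3 counts in some library, with a summed level of 6109 to 9445 FPKM (fragments scaled to transcript length and library size, as deposited). Of 12 hepatocyte markers listed, 11 are in the tables and 9 passed 3 counts somewhere, but Cps1 and Asgr1 never did. The summed level of this list was 175 to 423 FPKM in untreated, 253 to 514 in Rspo1-negative and 191 to 299 in Rspo1-positive libraries. The albumin gene Alb averaged 6.26 FPKM in untreated, 4.88 in Rspo1-negative and 3.04 in Rspo1-positive cells. Of the markers of other cells in the tables, 4 of 8 mesenchymal, 3 of 5 endothelial and 4 of 5 immune genes passed 3 counts somewhere, with summed levels of 0.13 to 0.608, 0.0471 to 0.122 and 13.5 to 27.6 FPKM; Col1a2, Pdgfra, Lum, Des, Cdh5, Stab2 and Cd79a never did.

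Which P450 genes these cells held was read from the counts. Of the 78 members, 38 passed the filter on low counts and were tested, 15 were counted but stayed below the filter, 24 never passed 3 counts in any library, and Cyp3a16 had no count in any of the 9 libraries, which allows up to 3 counts in each. The set without detectable expression includes enzymes that are abundant in hepatocytes: Cyp3a11, Cyp3a25, Cyp2a12 and Cyp4a14 reached at most 1, 1, 2 and 1 counts. The other members that never passed 3 counts were Cyp11b1, Cyp11b2, Cyp24a1, Cyp26c1, Cyp2a4, Cyp2ab1, Cyp2c23, Cyp2c55, Cyp2c66, Cyp2d12, Cyp2d40, Cyp2g1, Cyp2j13, Cyp3a57, Cyp3a59, Cyp4a12b, Cyp4f15, Cyp4f18, Cyp4f37 and Cyp4f39. Among those below the filter, Cyp2e1, which oxidises ethanol, reached at most 7 counts. Cyp1a2, the caffeine-oxidising enzyme of pericentral hepatocytes, reached at most 10, Cyp2c29 at most 4 and Cyp7b1, an oxysterol hydroxylase, at most 8. The remaining members below the filter were Cyp17a1, Cyp26a1, Cyp2b19, Cyp2b9, Cyp2c50, Cyp2j8, Cyp2w1, Cyp4a10, Cyp4a30b, Cyp4a31 and Cyp4x1, with at most 22 counts in any library.

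The expressed set was narrow. Mean FPKM over the 9 libraries was at least 1 for 25 members and at least 10 for 11, and the 5 highest members held 64.8% of the summed member FPKM. Cyp2s1, a family 2 enzyme of epithelia and a reported target of the dioxin receptor in the mouse, stood first with a mean of 91.0 FPKM and 24.7% of the sum. It was followed by Cyp2d10 (49.3 FPKM) and Cyp2d22 (40.2 FPKM), mouse relatives of the human drug-oxidising enzyme CYP2D6, by Cyp2j6 (36.7 FPKM), of an arachidonic acid epoxygenase subfamily, and by Cyp3a13 (21.8 FPKM), of the 3A drug-oxidising subfamily. Cyp2f2, the naphthalene-oxidising enzyme of airway club cells, Cyp4f13, of a fatty acid and leukotriene hydroxylase subfamily, and Cyp20a1, an enzyme with no settled substrate, averaged 16.1, 15.7 and 14.3 FPKM. The summed FPKM of all members was 465, 520 and 493 in the untreated libraries of passages 5, 6 and 10, against 404, 330 and 422 in the Rspo1-negative and 259, 186 and 243 in the Rspo1-positive libraries. The sums of the 3 groups did not overlap, and the Rspo1-positive libraries were the lowest at every passage. In sorted bulk samples, fewer cells that express a gene and less RNA per cell cannot be told apart.

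**Figure D1:**
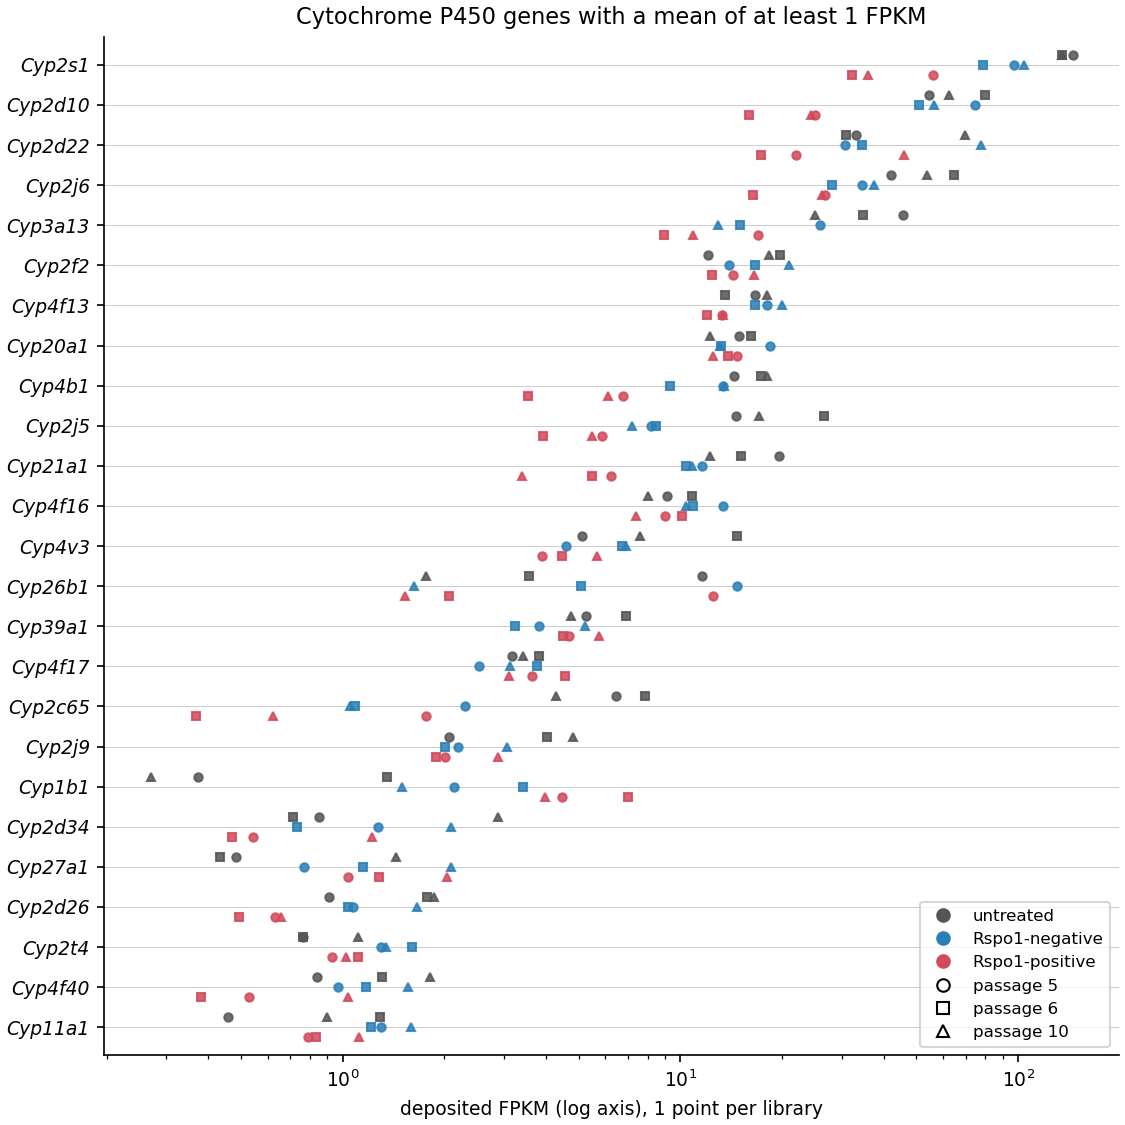
Deposited FPKM (log axis) of the 25 P450 genes with a mean of at least 1 FPKM, 1 point per library, with colour for the group and shape for the passage; genes are ordered by mean. Cyp2s1 is highest, the Rspo1-positive points lie to the left for many of the upper genes, and Cyp1b1 runs the other way.

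Genes were compared between groups by edgeR's quasi-likelihood test with passage as a block, over 17011 genes with Benjamini-Hochberg adjustment, and a gene is said to have risen or fallen where its adjusted p was under 0.05. In Rspo1-positive against untreated cells 17 of the 38 tested members changed, 3 higher and 14 lower, and the median log2 fold change of the 38 was -0.69. Over all genes tested 13.2% changed, 6.44% higher and 6.77% lower, around a median of 0.00. The groups did not overlap for 14 of the 38 members, against 23.1% of all genes. Without Rspo1-positive replicate 2 (passage 6), 9 members were called, against 6.36% of all genes, and without the passage block 9 were called, against 5.21%. With an offset for GC content and length 20 were called, against 15.7% of all genes. In the fits that left out 1 library each, 9 of the 17 kept their call in all 9: Cyp1b1, Cyp21a1, Cyp2c65, Cyp2d10, Cyp2j5, Cyp2j6, Cyp2s1, Cyp3a13 and Cyp4b1.

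Within Rspo1-treated organoids, Rspo1-positive against Rspo1-negative cells showed 12 of 38 members changed, 2 higher and 10 lower, with a median of -0.50 against 0.03 over all genes. Of all genes 38.9% changed here, 21.5% higher and 17.4% lower. The groups did not overlap for 16 members (42.1%), against 45.2% of all genes. Rspo1-negative against untreated cells, both tdTomato-negative, showed 8 of 38 members changed, 2 higher and 6 lower, with a median of -0.18 against -0.01, where 35.5% of all genes changed, 15.5% higher and 20.0% lower. Non-overlap in that comparison was found for 9 members (23.7%) and 36.4% of all genes. The 3 comparisons share libraries pairwise, so each gene's values are given side by side below without a count of shared calls. Without Rspo1-negative replicate 1 (passage 5) the numbers of members called were 7 and 4, against 21.1% and 18.5% of all genes, and without the block both were 5, against 24.3% and 21.9%. The GC and length offset lowered the calls over all genes to 23.4% and 23.1% in these comparisons, with 11 and 7 members.

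**Figure D2:**
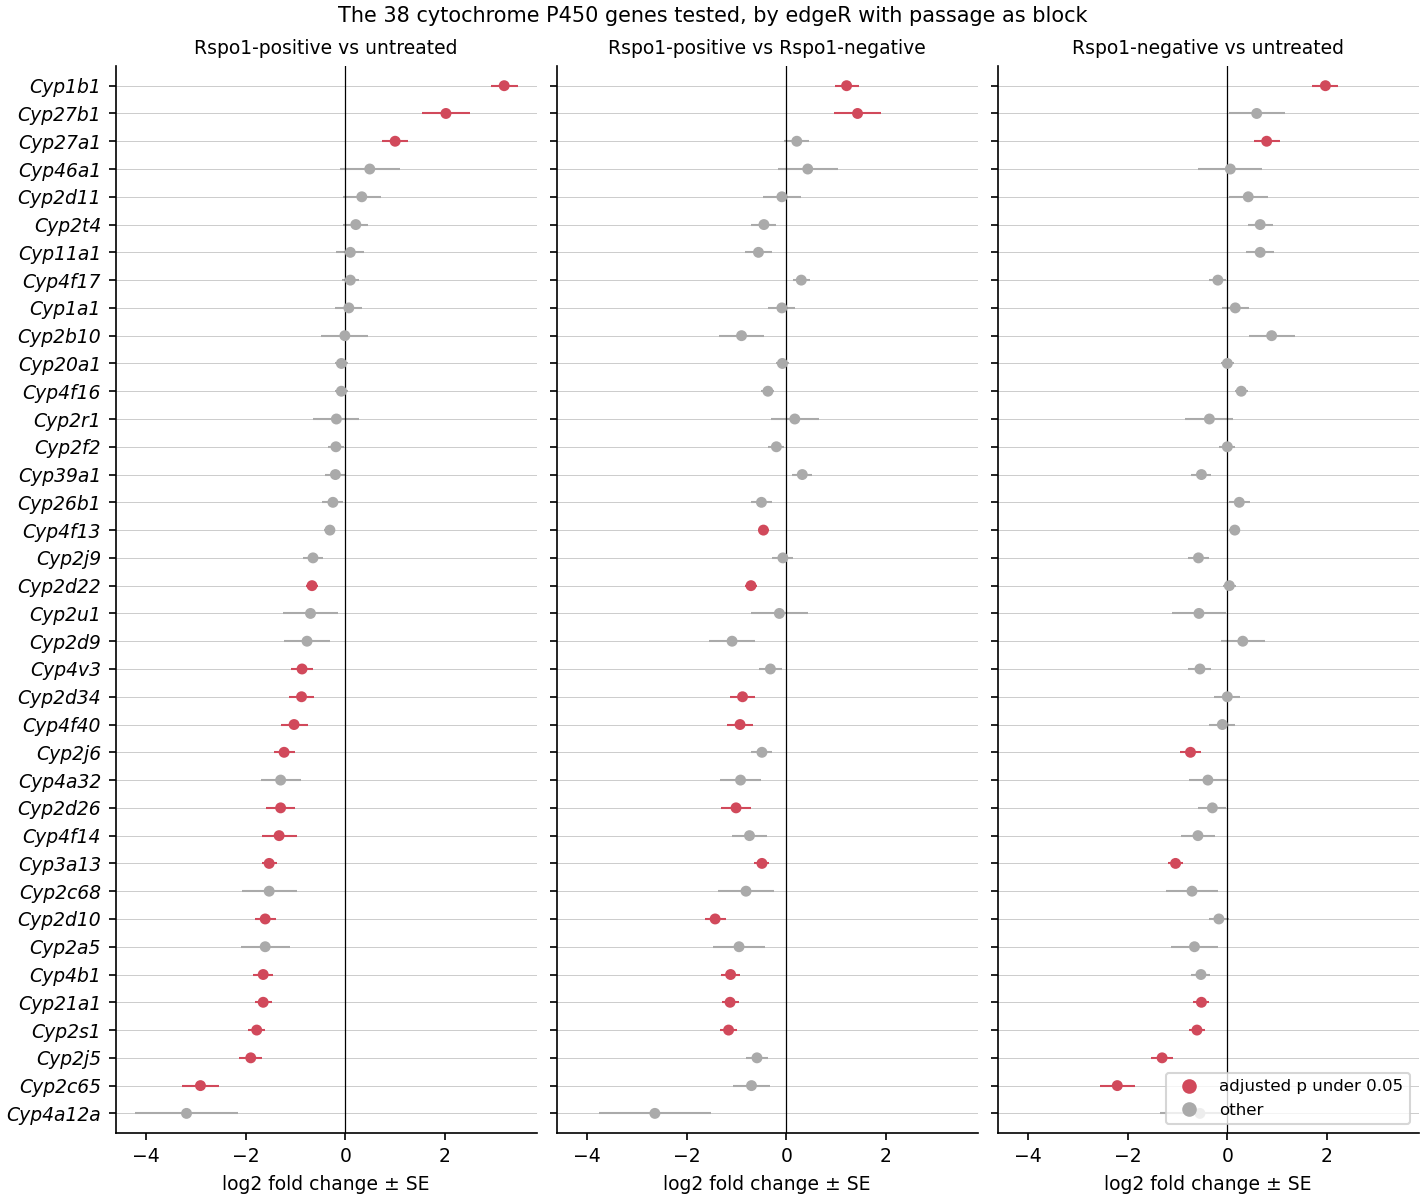
Log2 fold changes with SE of the 38 tested P450 genes in the 3 comparisons, ordered by the first; red marks an adjusted p under 0.05. Of the 17 red points in the first panel, 14 lie below 0, and Cyp1b1 at 3.19 is the largest rise among those called.

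Retinoic acid clearance is the work of the Cyp26 enzymes, which hydroxylate retinoic acid and so end its signal. Cyp26b1 (ENSMUSG00000063415, chromosome 6, 84571414 to 84593908, minus strand, GRCm38) was the only one of the 3 tested, since Cyp26a1 reached at most 4 and Cyp26c1 at most 3 counts. Its FPKM at passages 5, 6 and 10 was 11.6, 3.57 and 1.76 in untreated, 14.7, 5.09 and 1.63 in Rspo1-negative and 12.5, 2.07 and 1.53 in Rspo1-positive cells. In each group the passage 5 library was highest and the passage 10 library lowest, and the 3 groups overlapped. Passage passed the test for Cyp26b1 (adjusted p = 0.00026), with log2 fold changes against passage 5 of -1.89 (SE 0.21) at passage 6 and -2.94 (SE 0.22) at passage 10. No difference between groups passed: the log2 fold changes were -0.25 (SE 0.21, adjusted p = 0.506) for Rspo1-positive against untreated, -0.50 (SE 0.21, adjusted p = 0.0835) for Rspo1-positive against Rspo1-negative and 0.24 (SE 0.21, adjusted p = 0.39) for Rspo1-negative against untreated. The second value passed with DESeq2 (adjusted p = 0.0332), without the filter (0.00543) and without Rspo1-negative replicate 3 (0.0472), within a range of 0.00543 to 0.807 over 16 alternatives. With 1 library per passage and group, a change of the line with passage and a difference between culture rounds cannot be told apart.

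The 250 bases before the RefSeq transcript start of Cyp26b1 (GRCm38.p6, chr6:84593811-84594060, minus strand) are shown 5′ to 3′ because this gene differed by passage and not detectably by group; none of the motifs searched is in them, so no letter is in capitals. The GENCODE start of the gene lies inside this window.
Cyp26b1: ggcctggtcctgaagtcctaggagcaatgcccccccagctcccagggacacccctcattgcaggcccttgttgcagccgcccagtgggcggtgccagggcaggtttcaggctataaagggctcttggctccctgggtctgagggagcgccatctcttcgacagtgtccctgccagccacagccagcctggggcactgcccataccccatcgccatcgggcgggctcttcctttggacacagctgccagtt

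The motifs were the dioxin response core GCGTG, the TCF/LEF heptamer (CTTTG, then each of the last bases either A or T) through which Wnt signals reach DNA, the glucocorticoid palindrome (AGAACA, any 3 bases, TGTTCT) and the retinoic acid direct repeat (AGGTCA, any 5 bases, AGGTCA), each on both strands. Of 32851 promoter windows of the same length, 28.16% hold the first, 14.84% the second and 0.01% each of the last pair. Windows were found for 58 of the 78 members, of which 13 hold the dioxin core, 15 a TCF/LEF heptamer and 0 either of the long motifs. For Cyp11a1, Cyp27a1, Cyp2c68, Cyp2t4, Cyp46a1 and Cyp4a32 the bases just after the window were not found in the gene's GENCODE transcripts. Of these, Cyp46a1 and Cyp2c68 are counted with the dioxin core, and Cyp2c68 also with a TCF/LEF heptamer. A match describes letters only, and its absence says nothing about binding.

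Family 1 holds the classic targets of the dioxin receptor Ahr. Cyp1b1 (ENSMUSG00000024087, chromosome 17, 79701537 to 79715061, minus strand), which oxidises polycyclic hydrocarbons and estradiol, rose more than any other member called. Its counts at passages 5, 6 and 10 were 63, 210 and 49 in untreated, 398, 428 and 183 in Rspo1-negative and 936, 1069 and 752 in Rspo1-positive cells, or 0.663 ± 0.593, 2.35 ± 0.982 and 5.15 ± 1.63 FPKM (SD, n = 3). No 2 groups overlapped in FPKM, the Rspo1-positive libraries were highest at every passage, and the passage 6 library was highest in every group. By edgeR the log2 fold change was 3.19 (SE 0.27, adjusted p = 1.91e-05) for Rspo1-positive against untreated, 1.21 (SE 0.24, adjusted p = 0.00312) for Rspo1-positive against Rspo1-negative and 1.97 (SE 0.26, adjusted p = 0.000379) for Rspo1-negative against untreated. Without the block the second was 1.16 (adjusted p = 0.128), in a range of 6.96e-10 to 0.128 over 16 alternatives. None of the 75-base windows of the longest Cyp1b1 transcript matches another gene.

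Cyp1a1 (chromosome 9, 57687928 to 57703824, plus strand), which the same receptor induces, was called in no comparison of groups. Its counts were 46, 187 and 19 in untreated, 86, 118 and 17 in Rspo1-negative and 92, 136 and 22 in Rspo1-positive cells, so that passage 6 was highest and passage 10 lowest in every group. Between groups the log2 fold changes were 0.07 (SE 0.27, adjusted p = 0.911), -0.09 (SE 0.27, adjusted p = 0.827) and 0.16 (SE 0.27, adjusted p = 0.689), for the comparisons in the order given for Cyp1b1. Passage passed the test (adjusted p = 0.000572), with 1.40 (SE 0.26) at passage 6 and -1.67 (SE 0.29) at passage 10 against passage 5. Cyp1b1 also passed for passage (adjusted p = 0.0101). The third member of the family, Cyp1a2, stayed below the filter. Promoter windows of both genes are shown because they share a regulator by reputation and differ in these data: the dioxin core, or its complement CACGC, is in capitals and begins 54 bases before the start in Cyp1a1 (chr9:57697363-57697612, plus strand) and 76 bases before it in Cyp1b1 (chr17:79715062-79715311, minus strand), where a TCF/LEF heptamer in its complement form, also in capitals, begins at 213 bases. The Cyp1a1 window precedes the RefSeq start and lies inside the longer GENCODE gene.
Cyp1a1: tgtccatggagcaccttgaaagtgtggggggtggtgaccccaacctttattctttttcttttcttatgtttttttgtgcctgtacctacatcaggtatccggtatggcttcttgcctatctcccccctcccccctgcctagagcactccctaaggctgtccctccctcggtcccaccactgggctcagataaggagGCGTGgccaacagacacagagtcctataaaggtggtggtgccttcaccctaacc
Cyp1b1: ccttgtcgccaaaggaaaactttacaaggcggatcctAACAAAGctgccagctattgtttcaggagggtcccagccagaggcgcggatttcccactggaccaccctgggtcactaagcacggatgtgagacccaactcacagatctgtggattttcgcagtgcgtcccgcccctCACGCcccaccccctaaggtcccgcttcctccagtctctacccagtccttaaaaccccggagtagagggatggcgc

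**Figure D3:**
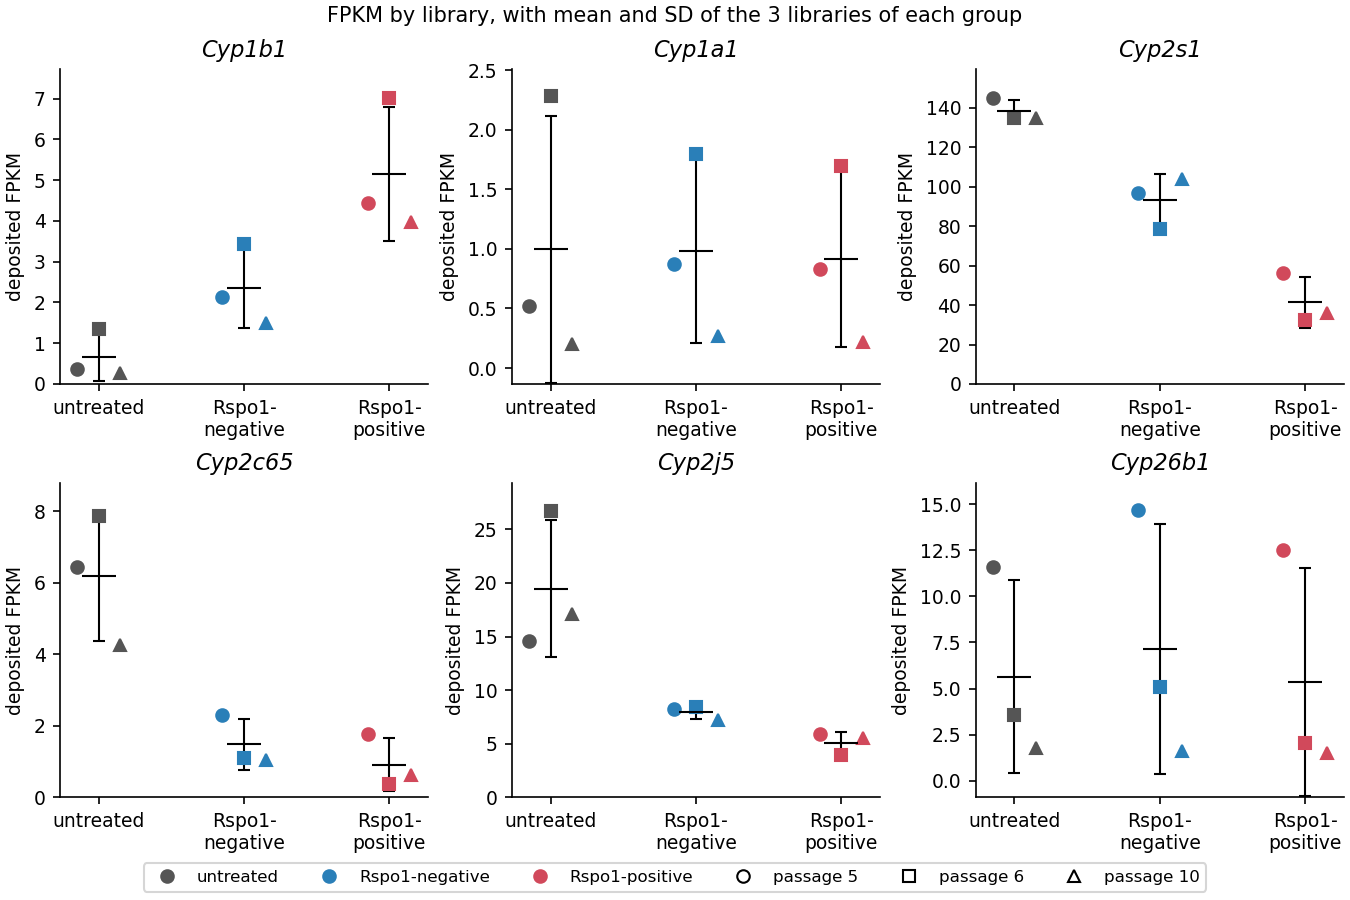
Deposited FPKM of 6 P450 genes by group, 1 point per library with its passage as shape; bars give the mean and SD of 3 libraries. Cyp1b1 is highest in the Rspo1-positive libraries, Cyp2s1, Cyp2c65 and Cyp2j5 are highest in the untreated libraries, and Cyp1a1 and Cyp26b1 separate by passage within every group.

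Drug and xenobiotic oxidation is represented by 31 members, of which 13 were tested. In Rspo1-positive cells 6 fell and 0 rose against untreated cells, and 5 fell and 0 rose against Rspo1-negative cells. In Rspo1-negative against untreated cells 2 fell and 0 rose. Of all genes 13.2%, 38.9% and 35.5% were called in these comparisons, and 6.77%, 17.4% and 20.0% fell. Cyp2c65 (chromosome 19, 39061015 to 39093944, plus strand), an intestinal enzyme that also oxidises arachidonic acid, fell most among the members called. Its FPKM at passages 5, 6 and 10 was 6.43, 7.87 and 4.27 in untreated, 2.31, 1.09 and 1.05 in Rspo1-negative and 1.76, 0.367 and 0.620 in Rspo1-positive cells. Every untreated library lay above every Rspo1 library, while the Rspo1 groups overlapped. The log2 fold change was -2.91 (SE 0.37, adjusted p = 0.000334) for Rspo1-positive and -2.21 (SE 0.35, adjusted p = 0.00105) for Rspo1-negative, both against untreated, and -0.70 (SE 0.37, adjusted p = 0.156) between the Rspo1 groups. The last passed in a fit of only those 6 libraries (adjusted p = 0.0346), without the filter (0.0077) and without untreated replicate 2 (0.0288), in a range of 0.0077 to 0.496 over 16 alternatives. Of its 75-base windows 11.38% also occur in Cyp2c66, which reached at most 1 count. The Cyp2c65 window (chr19:39060756-39061005, plus strand) is shown as that of the member that fell most among those called, with its TCF/LEF heptamers, both in complement form, in capitals at 244 and 118 bases before the start.
Cyp2c65: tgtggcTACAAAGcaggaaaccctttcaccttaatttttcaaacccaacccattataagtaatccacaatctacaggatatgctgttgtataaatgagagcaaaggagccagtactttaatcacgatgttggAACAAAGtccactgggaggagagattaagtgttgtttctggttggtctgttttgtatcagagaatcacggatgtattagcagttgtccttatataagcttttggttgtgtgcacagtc

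Cyp3a13 (chromosome 5, 137892932 to 137921619, minus strand) had 45.7, 34.8 and 25 FPKM in untreated, 25.9, 15 and 12.9 in Rspo1-negative and 17.0, 8.92 and 10.9 in Rspo1-positive cells. Both Rspo1 groups fell from untreated, by 1.53 (SE 0.15, adjusted p = 5.12e-05) and 1.04 (SE 0.15, adjusted p = 0.000527) on the log2 scale. Between the overlapping Rspo1 groups the log2 fold change was -0.49 (SE 0.15, adjusted p = 0.0218); it was -0.83 with the GC and length offset, and the call was lost without the block (adjusted p = 0.253) and without Rspo1-negative replicate 1 (0.111), Rspo1-positive replicate 1 (0.0829) or Rspo1-positive replicate 2 (0.13), in a range of 0.00177 to 0.253 over 16 alternatives. Passage passed the test too (adjusted p = 0.00861, -0.80 at passage 10 against 5), though not without Rspo1-negative replicate 1 (0.0738) or Rspo1-positive replicate 1 (0.0524), in a range of 5.66e-08 to 0.0738 over 14 alternatives.

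In the 2D subfamily, 4 of 6 tested members fell in Rspo1-positive against untreated cells, where 6.77% of all genes fell. Of these members only Cyp2d10 kept its call without the block and in every fit that left out 1 library. Cyp2d10 (chromosome 15, 82402846 to 82407195, minus strand) had 54.4, 79.6 and 62.5 FPKM in untreated, 74.5, 50.7 and 56.4 in Rspo1-negative and 25.1, 16 and 24.4 in Rspo1-positive cells. The tdTomato-negative groups overlapped and all Rspo1-positive libraries lay below them. Cyp2d10 fell by 1.61 (SE 0.21, adjusted p = 0.000423) against untreated and by 1.43 (SE 0.21, adjusted p = 0.000651) against Rspo1-negative on the log2 scale, and the tdTomato-negative groups differed by -0.17 (SE 0.20, adjusted p = 0.535). Of the 75-base windows of Cyp2d10, Cyp2d11 and Cyp2d9, 26.68%, 21.9% and 16.67% occur in other genes. Part of their counts, 23262, 210 and 251 over all libraries, may thus belong to a paralog.

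Cyp2d22 (82370527 to 82380260 on the same chromosome, minus strand) had 33.1, 31.0 and 69.4 FPKM in untreated, 30.7, 34.4 and 77.6 in Rspo1-negative and 22.0, 17.3 and 46.0 in Rspo1-positive cells, highest at passage 10 in each group. The groups overlapped across passages, and within each passage the Rspo1-positive library was the lowest. With passage as a block Cyp2d22 fell by 0.67 (SE 0.13, adjusted p = 0.00564) from untreated and by 0.71 (SE 0.13, adjusted p = 0.00216) from Rspo1-negative cells on the log2 scale. Without it the adjusted p-values were 0.557 and 0.296, in ranges of 3.06e-05 to 0.557 and 1.8e-06 to 0.296 over 16 alternatives each. The first call was also lost without Rspo1-positive replicate 2 (0.0574), and the second value was -0.42 with the GC and length offset. Passage passed the test (adjusted p = 0.00051, 1.18 with SE 0.13 at passage 10 against 5).

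Cyp2d26 and Cyp2d34 lay lower, at means of 1.12 and 1.20 FPKM. Cyp2d26 had log2 fold changes of -1.30 (adjusted p = 0.0129) against untreated and -1.01 (adjusted p = 0.0201) against Rspo1-negative cells. The first was lost without the block (0.0531) and without Rspo1-positive replicate 2 (0.0934) or 3 (0.0843), and the second, which was -0.60 with the offset (0.156), without the block (0.0544) and without Rspo1-negative replicate 1 (0.0898) or 3 (0.0834) or Rspo1-positive replicate 2 (0.0855) or 3 (0.102). Over 16 alternatives their adjusted p-values ranged from 0.000165 to 0.0934 and from 0.002 to 0.156. Cyp2d34, for which passage passed (adjusted p = 0.00367), had log2 fold changes of -0.88 in both (adjusted p = 0.042 and 0.0196), with ranges of 0.0153 to 0.454 and 0.00378 to 0.342 over 16 alternatives. The first call was lost with upper-quartile scaling (0.0537), without the block (0.454), with only those 6 libraries (0.0746) and without Rspo1-negative replicate 1 or 2, any Rspo1-positive replicate or untreated replicate 3 (0.0519 to 0.227). The second was lost with the offset (0.102), without the block (0.342) and without Rspo1-negative replicate 1 (0.138) or Rspo1-positive replicate 1 (0.0882) or 3 (0.0989). Cyp2f2, with 12.1, 19.7 and 18.3 FPKM in untreated, 13.9, 16.6 and 20.9 in Rspo1-negative and 14.3, 12.4 and 16.5 in Rspo1-positive cells, was called in no comparison of groups by edgeR with passage as a block, and neither were Cyp2a5, Cyp2b10, Cyp2c68, Cyp2d9, Cyp2d11 and Cyp2t4. Of these, Cyp2c68 was called by DESeq2 and Cyp2a5 with the offset in Rspo1-positive against untreated cells. In the same comparison Cyp2a5 was called without untreated replicate 2 or 3, and Cyp2c68 without untreated replicate 1. Cyp2d9 was called between the Rspo1 groups with only those 6 libraries and without Rspo1-negative replicate 2 or untreated replicate 1. In Rspo1-negative against untreated cells Cyp2t4 was called with upper-quartile scaling and Cyp2b10 without untreated replicate 2. Without the filter on low counts Cyp2a5, Cyp2c68 and Cyp2d9 were also called.

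Fatty acid and eicosanoid oxidation (2J, 2U and family 4) is represented by 25 members, 13 of them tested. In Rspo1-positive against untreated cells 6 fell and 0 rose, and against Rspo1-negative cells 3 fell and 0 rose. In Rspo1-negative against untreated cells 2 fell and 0 rose. Over all genes 13.2%, 38.9% and 35.5% were called in these comparisons, with 6.77%, 17.4% and 20.0% lower. Cyp2j5 (chromosome 4, 96628773 to 96664154, minus strand), an arachidonic acid epoxygenase, had 14.6, 26.7 and 17.1 FPKM in untreated, 8.21, 8.46 and 7.18 in Rspo1-negative and 5.88, 3.92 and 5.49 in Rspo1-positive cells, with no overlap between any groups. It fell by 1.90 (SE 0.23, adjusted p = 0.000239) and 1.31 (SE 0.22, adjusted p = 0.00145) on the log2 scale in Rspo1-positive and Rspo1-negative against untreated cells. Between the Rspo1 groups the value was -0.59 (SE 0.23, adjusted p = 0.0595), which passed under 8 of 16 alternatives, among them DESeq2 (0.0165), the offset (-0.87, 0.0152) and the fits without untreated replicate 1 (0.0413) or 2 (0.00591), in a range of 0.000756 to 0.262.

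Cyp2j6 (96516138 to 96553661 on the same chromosome, minus strand) followed a similar order, with 42.1, 64.7 and 53.6 FPKM in untreated, 34.4, 28.1 and 37.4 in Rspo1-negative and 26.8, 16.4 and 26.3 in Rspo1-positive cells, again without overlap. Its log2 fold change was -1.23 (SE 0.21, adjusted p = 0.00255) for Rspo1-positive against untreated. Rspo1-negative cells fell from untreated by 0.74 (SE 0.21, adjusted p = 0.0178), a call lost with the GC and length offset (-0.38, 0.178) and without Rspo1-negative replicate 1 (0.068), 2 (0.0696) or 3 (0.0612), in a range of 4.72e-05 to 0.178; without untreated replicate 2 the value was -0.38 (0.0356). The Rspo1 groups differed by -0.49 (SE 0.21, adjusted p = 0.0794), which passed with the offset (-0.88, 0.00953), with DESeq2 (0.0253), without the filter (0.00182), with those 6 libraries alone (0.00383) and without untreated replicate 2 (0.00277), in a range of 0.00182 to 0.357.

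Cyp4b1 (chromosome 4, 115624725 to 115647723, minus strand), which activates plant and other protoxins and hydroxylates fatty acids, had 14.4, 17.3 and 18.1 FPKM in untreated, 13.4, 9.29 and 13.5 in Rspo1-negative and 6.77, 3.54 and 6.10 in Rspo1-positive cells, with no overlap between groups. The log2 fold changes were -1.65 (SE 0.20, adjusted p = 0.000219) for Rspo1-positive against untreated, -1.12 (SE 0.19, adjusted p = 0.00164) against Rspo1-negative and -0.53 (SE 0.19, adjusted p = 0.0501) for Rspo1-negative against untreated cells. The last missed the threshold by edgeR and passed with the offset (-0.83, 0.0105), with DESeq2 (0.0352), without the filter (0.0201), with those 6 libraries alone (0.0491) and without Rspo1-positive replicate 2 (0.0394) or untreated replicate 1 (0.0226), in a range of 0.0105 to 0.21.

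Family 4 held 3 further members that fell. In Rspo1-positive against untreated cells Cyp4v3, the mouse counterpart of the fatty acid hydroxylase CYP4V2, Cyp4f14 and Cyp4f40 had log2 fold changes of -0.87, -1.33 and -1.03 (adjusted p = 0.0314, 0.0293 and 0.0262). All 3 calls were lost without the block (0.16, 0.129 and 0.239) and without single libraries. For Cyp4v3 these were Rspo1-negative replicate 1 (0.0596) and Rspo1-positive replicates 2 (0.213) and 3 (0.0529), and without untreated replicate 2 its value was -0.46 (0.0496); for Cyp4f14 and Cyp4f40 they were Rspo1-negative replicate 1, every Rspo1-positive replicate and untreated replicates 2 and 3, with adjusted p from 0.0515 to 0.138 and from 0.0507 to 0.15. Over 16 alternatives the adjusted p of Cyp4v3, Cyp4f14 and Cyp4f40 ranged from 3.92e-06 to 0.213, 0.00494 to 0.138 and 0.00236 to 0.239. Against Rspo1-negative cells Cyp4f40 had -0.93 (adjusted p = 0.0189), lost with the offset (0.148), without the block (0.159) and without Rspo1-negative replicate 1 (0.0839) or Rspo1-positive replicate 2 (0.0897), in a range of 0.00197 to 0.159. Cyp4f13 had 16.6, 13.6 and 18 FPKM in untreated, 18, 16.6 and 20.0 in Rspo1-negative and 13.3, 12 and 13.4 in Rspo1-positive cells, a difference of -0.46 (SE 0.11, adjusted p = 0.0092) between the Rspo1 groups, which was -0.04 (0.806) with the GC and length offset and missed the threshold without Rspo1-positive replicate 3 (0.06), in a range of 0.00254 to 0.806. Of the other members of the class Cyp4f16, Cyp4f17, Cyp2j9, Cyp2u1, Cyp4a32 and Cyp4a12a were called in no comparison of groups by edgeR with passage as a block. DESeq2 called Cyp2j9 and Cyp4a12a in Rspo1-positive against untreated cells and Cyp4f16 between the Rspo1 groups. The GC and length offset gave calls for Cyp2j9 and Cyp4a32 in the former comparison and for Cyp4f17 in the latter. Between the Rspo1 groups Cyp4f16 was also called with median-of-ratios and upper-quartile scaling and with only the 6 libraries compared. Without the filter on low counts Cyp2j9, Cyp4f16 and Cyp4a12a were also called, and some passed without single libraries. Cyp4a12a had 2, 11 and 28 counts in untreated, 10, 9 and 2 in Rspo1-negative and 3, 0 and 1 in Rspo1-positive cells, and 40.84% of its 75-base windows occur in Cyp4a12b.

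Cyp2s1 (ENSMUSG00000040703, chromosome 7, 25802475 to 25816913, minus strand) had the highest level and fell in both Rspo1 groups. Its FPKM at passages 5, 6 and 10 was 145, 135 and 135 in untreated, 97.0, 78.7 and 104 in Rspo1-negative and 56.0, 32.3 and 35.9 in Rspo1-positive cells, with no overlap between groups. The log2 fold changes were -1.78 (SE 0.17, adjusted p = 4.41e-05) for Rspo1-positive against untreated, -1.16 (SE 0.17, adjusted p = 0.000616) for Rspo1-positive against Rspo1-negative and -0.61 (SE 0.16, adjusted p = 0.0144) for Rspo1-negative against untreated cells. The last was -0.98 with the GC and length offset and lost its call without the block (0.0551) and without Rspo1-negative replicate 1 (0.0986), in a range of 0.00172 to 0.0986. Of its exon bases 5.27% are shared with the opposite-strand gene Gm26707, and the strand setting of the counting is not given in the sources used here. Cyp20a1 had 14.9, 16.2 and 12.2 FPKM in untreated, 18.4, 13.2 and 13.1 in Rspo1-negative and 14.7, 13.8 and 12.5 in Rspo1-positive cells and was called in no comparison.

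Steroid hormone synthesis is represented by 5 members, 2 of them tested. Cyp21a1 (chromosome 17, 34801348 to 34804561, minus strand), the hydroxylase of the adrenal route to glucocorticoids and mineralocorticoids, had 19.6, 15.1 and 12.2 FPKM in untreated, 11.6, 10.4 and 10.8 in Rspo1-negative and 6.25, 5.46 and 3.40 in Rspo1-positive cells. No groups overlapped, and the untreated libraries were highest at every passage. Its log2 fold changes were -1.65 (SE 0.17, adjusted p = 6.25e-05) for Rspo1-positive against untreated, -1.13 (SE 0.17, adjusted p = 0.000703) against Rspo1-negative and -0.52 (SE 0.16, adjusted p = 0.0277) for Rspo1-negative against untreated cells. With the GC and length offset the latter pair were -0.68 and -0.93. The last call was lost without the block (0.107) and without Rspo1-negative replicate 1 (0.188) or 2 (0.0896) or untreated replicate 1 (0.135) or 3 (0.0565), in a range of 0.00177 to 0.188. Of its 75-base windows 14.67% occur in other genes, its pseudogene Cyp21a2-ps among them. Cyp11a1, which starts steroid synthesis by cutting the side chain of cholesterol, averaged 1.05 FPKM. By edgeR with passage as a block it was called in no comparison of groups. Between the Rspo1 groups it was called with only those 6 libraries. In both comparisons with Rspo1-negative cells it was called without untreated replicate 2 or without the filter. Against untreated, Rspo1-negative cells also had a Cyp11a1 call without Rspo1-negative replicate 2.

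Bile acid and oxysterol metabolism is represented by 4 members, 3 of them tested. Cyp27a1 (chromosome 1, 74713574 to 74737892, plus strand), the mitochondrial sterol hydroxylase of the acidic bile acid route, had 0.482, 0.434 and 1.44 FPKM in untreated, 0.770, 1.15 and 2.09 in Rspo1-negative and 1.04, 1.28 and 2.04 in Rspo1-positive cells. Passage 10 was highest in every group, and at each passage the untreated library was lowest. Against untreated its log2 fold change was 1.0 (SE 0.26, adjusted p = 0.0265) in Rspo1-positive and 0.79 (SE 0.26, adjusted p = 0.0377) in Rspo1-negative cells. Both calls were lost without the block (0.442 and 0.358). The first was lost without Rspo1-positive replicate 1 (0.118) or 2 (0.124) or untreated replicate 1 (0.0841) or 2 (0.065) and with only those 6 libraries (0.0561), and the second, which was 0.43 (0.27) with the offset, without 6 of the 9 libraries in turn (0.0534 to 0.105), all but untreated replicate 3 and Rspo1-positive replicates 2 and 3, and with only its 6 libraries (0.0803). Over 16 alternatives the adjusted p-values ranged from 0.0024 to 0.442 and from 0.0112 to 0.358. Cyp39a1, an oxysterol hydroxylase of the liver (mean 4.89 FPKM), and Cyp46a1, which hydroxylates cholesterol in neurons (mean 0.223 FPKM), were called in no comparison of groups by edgeR with passage as a block; Cyp39a1 was called in Rspo1-negative against untreated cells without untreated replicate 3 and without the filter.

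Vitamin D handling is represented by Cyp2r1 and Cyp27b1, which activate the vitamin in sequence, and Cyp24a1, which degrades it and reached at most 1 count. Cyp27b1 (chromosome 10, 127048250 to 127053006, plus strand) had 3, 2 and 12 counts in untreated, 9, 3 and 9 in Rspo1-negative and 26, 16 and 27 in Rspo1-positive cells. The Rspo1-positive libraries lay above all others at these low counts. Only this group held at least 10 counts, the minimum of the filter, in all 3 libraries. Cyp27b1 was thus tested only because of the group where it is high, so its calls are no independent support for a rise. It is among the members counted above as higher in Rspo1-positive cells. Rspo1-positive cells were higher by 2.02 (SE 0.49, adjusted p = 0.0202) than untreated and by 1.43 (SE 0.48, adjusted p = 0.0348) than Rspo1-negative cells on the log2 scale. The first was lost without the block (0.115) and without Rspo1-positive replicate 1 (0.0952) or 2 (0.106) or untreated replicate 1 (0.117), and the second without the block (0.115), with DESeq2 (0.103) and without any Rspo1-negative replicate or Rspo1-positive replicate 1 or 2 (0.0972 to 0.163). Over 16 alternatives the adjusted p-values ranged from 0.00384 to 0.117 and from 0.0189 to 0.163. Cyp2r1 averaged 0.235 FPKM and was called in no comparison.

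Passage passed the test for 9 of the 38 members, against 12% of all genes: Cyp1a1, Cyp1b1, Cyp26b1, Cyp27a1, Cyp2a5, Cyp2d11, Cyp2d22, Cyp2d34 and Cyp3a13. Without untreated replicate 2 (passage 6) the number was 18, against 21.1% of all genes. They did not move as one, since Cyp26b1 and Cyp2a5, which oxidises coumarin and nicotine, had log2 fold changes of -2.94 and -2.59 at passage 10 against 5, while Cyp2d22, Cyp2d34, Cyp2d11 and Cyp27a1 had 1.18, 1.24, 1.26 and 1.35. Cyp2a5 rests on 50, 23 and 16 counts at passage 5 in untreated, Rspo1-negative and Rspo1-positive cells, against 5, 5 and 2 at passage 10, and its call was lost without untreated replicate 1 (adjusted p = 0.144). The calls of Cyp2d11 and Cyp27a1 were also lost without single libraries, Cyp2d11 without each except untreated replicate 2 (0.0621 to 0.239) and Cyp27a1 without Rspo1-negative replicate 1 (0.051) or 3 (0.0568) or untreated replicate 3 (0.0698). Over 14 alternatives the adjusted p ranged from 3.91e-05 to 0.144 for Cyp2a5, 0.00281 to 0.239 for Cyp2d11 and 1.05e-05 to 0.0698 for Cyp27a1.

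P450 enzymes work only with electrons and heme, so their partners were examined from a list of redox, heme synthesis and heme breakdown genes. Of 21 tested, 1 rose and 1 fell in Rspo1-positive against untreated cells, 2 rose and 9 fell against Rspo1-negative cells, and 8 rose and 0 fell in Rspo1-negative against untreated cells, where 13.2%, 38.9% and 35.5% of all genes were called. With the GC and length offset these were 1 and 2, 3 and 4, and 4 and 1, and without the block 0 and 0, 2 and 6, and 4 and 0. Por, the reductase that feeds the microsomal P450s, had 187, 131 and 141 FPKM in untreated, 253, 162 and 240 in Rspo1-negative and 124, 87.3 and 110 in Rspo1-positive cells. It was lowest in the Rspo1-positive library and highest in the Rspo1-negative library of every passage. Its log2 fold change was -0.99 (adjusted p = 0.000507) between the Rspo1 groups, and -0.55 with the offset. Against untreated it was -0.52 (adjusted p = 0.0262) in Rspo1-positive and 0.47 (adjusted p = 0.0206) in Rspo1-negative cells; the former was lost without the block (0.232) and without any Rspo1-positive replicate or untreated replicate 1 (0.108 to 0.148), and the latter with the offset (0.05, 0.771), without the block (0.135), with only its 6 libraries (0.0783) and without Rspo1-negative replicate 1 (0.066) or 3 (0.125) or untreated replicate 1 (0.0645) or 3 (0.108). Over 16 alternatives these adjusted p-values ranged from 0.00127 to 0.232 and from 0.00112 to 0.771. Among heme synthesis genes, Cpox rose by 0.58 (adjusted p = 0.0115) and 0.67 (adjusted p = 0.00263) in Rspo1-positive against untreated and Rspo1-negative cells, the first not without the block (0.184) nor without Rspo1-positive replicate 2 (0.0592) or 3 (0.084), in a range of 0.00219 to 0.184. Urod rose by 0.73 (adjusted p = 0.00197) in Rspo1-negative against untreated cells, and by 0.36 (0.0435) with the offset.

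Regulators of P450 genes were examined from a list of nuclear receptors and liver transcription factors. Of 28 tested, 3 rose and 8 fell in Rspo1-positive against untreated cells, 4 rose and 8 fell against Rspo1-negative cells, and 7 rose and 10 fell in Rspo1-negative against untreated cells, beside 13.2%, 38.9% and 35.5% of all genes; with the offset these were 3 and 7, 4 and 0, and 2 and 13, and without the block 1 and 2, 2 and 3, and 3 and 6. The dioxin receptor gene Ahr had 6.38, 9.22 and 7.57 FPKM in untreated, 5.51, 8.83 and 8.21 in Rspo1-negative and 10.9, 11.7 and 14.8 in Rspo1-positive cells. It was 0.70 higher on the log2 scale (adjusted p = 0.00806) in Rspo1-positive than untreated and 0.78 higher (adjusted p = 0.00216) than in Rspo1-negative cells, which differed from untreated by -0.09 (adjusted p = 0.662). The first call was lost without the block (0.105) and without Rspo1-positive replicate 1 (0.0607) or 3 (0.0608), in a range of 1.54e-05 to 0.105, and the second difference was 0.42 (0.0344) with the offset. Tiparp, itself a target and repressor of that receptor, had log2 fold changes of -0.83 (adjusted p = 0.00874) in Rspo1-positive and -1.15 (adjusted p = 0.000862) in Rspo1-negative against untreated cells, both lost without the block (0.27 and 0.0516) and the first without Rspo1-positive replicate 2 (0.0681), in ranges of 0.000121 to 0.27 and 5.11e-08 to 0.0516; the second was -0.58 (0.0228) with the offset. The estrogen receptor gene Esr1 rose from 0.0819 ± 0.0683 FPKM in untreated to 1.17 ± 0.146 in Rspo1-negative and 1.21 ± 0.187 in Rspo1-positive cells (SD, n = 3), with log2 fold changes of 3.86 (adjusted p = 9.68e-05) and 3.93 (adjusted p = 1.94e-05). The Rspo1 groups differed by 0.07 (adjusted p = 0.854), and by -0.42 with the offset. Sequence that Esr1 may share with the CreERT2 transgene of these cells was not examined, so its part in the Esr1 rise was not tested. Nr3c1, the receptor for the dexamethasone that every culture received, had a log2 fold change of -1.10 (adjusted p = 0.000484; -0.41 and 0.0368 with the offset) in Rspo1-negative against untreated cells and of 0.89 (adjusted p = 0.00152) between the Rspo1 groups, the latter 0.18 (0.31) with the offset, in a range of 1.63e-07 to 0.31.

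Around Cyp26b1, the genes of retinoid uptake, conversion and sensing were examined from a list. Of 19 tested, 1 rose and 7 fell in Rspo1-positive against untreated cells, 1 rose and 7 fell against Rspo1-negative cells, and 4 rose and 5 fell in Rspo1-negative against untreated cells, beside 13.2%, 38.9% and 35.5% of all genes called. With the offset these were 2 and 7, 3 and 4, and 1 and 7, and without the block 1 and 1, 0 and 1, and 2 and 4. Stra6, the receptor that brings retinol into cells, had 4.33, 11.9 and 5.37 FPKM in untreated, 28.3, 35.6 and 32.0 in Rspo1-negative and 35.5, 53.6 and 32.0 in Rspo1-positive cells. Every Rspo1 library lay above every untreated one, with log2 fold changes of 2.57 (adjusted p = 1.34e-05) and 2.24 (adjusted p = 0.000112) in Rspo1-positive and Rspo1-negative cells. The Rspo1 groups differed by 0.33 (adjusted p = 0.192), or by 0.71 (0.0177) with the offset; the value also passed with only those 6 libraries (0.0334) and without untreated replicate 2 (0.0302), in a range of 0.0177 to 0.697 over 16 alternatives.

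Dhrs9, a dehydrogenase that acts on retinol, went the other way, from 1.02 ± 0.0911 FPKM in untreated to 0.217 ± 0.0479 and 0.245 ± 0.0707 FPKM (SD, n = 3) in Rspo1-negative and Rspo1-positive cells, log2 fold changes of -2.27 (adjusted p = 0.000252) and -2.07 (adjusted p = 0.000318). Rbp2, a cellular retinol-binding protein, had 50.8, 28.5 and 17.3 FPKM in untreated, 43.2, 21.6 and 18.6 in Rspo1-negative and 19.4, 8.68 and 7.84 in Rspo1-positive cells. Like Cyp26b1 it was highest at passage 5 in every group, and passage passed the test for it (adjusted p = 0.000833). The same test passed for 6 of the 19 genes of this list, against 12% of all genes. With passage as a block Rbp2 fell by 1.42 (adjusted p = 9.02e-05) and 1.20 (adjusted p = 0.000357) in Rspo1-positive against untreated and Rspo1-negative cells, and without it the adjusted p-values were 0.124 and 0.0885, in ranges of 5.46e-15 to 0.124 and 1.03e-11 to 0.0885. Aldh1a1, which oxidises retinaldehyde to retinoic acid, had 96.8, 59.4 and 37.2 FPKM in untreated, 106, 51.1 and 46.5 in Rspo1-negative and 61.4, 27.9 and 29.6 in Rspo1-positive cells. Its log2 fold changes in Rspo1-positive cells were -0.70 (adjusted p = 0.00879) against untreated and -0.73 (adjusted p = 0.00323) against Rspo1-negative, lost without the block (0.442 and 0.224) and, for the first, without Rspo1-positive replicate 2 (0.089), in ranges of 8.39e-05 to 0.442 and 1.96e-06 to 0.224. Dhrs3, which reduces retinaldehyde back to retinol, had -0.80 (adjusted p = 0.00847) and -0.59 (adjusted p = 0.0156) in that order; the first was lost without the block (0.0502) and without Rspo1-positive replicate 2 (0.0829) or 3 (0.0529), the second with the offset (0.248), without the block (0.0576) and without Rspo1-negative replicate 1 (0.0932) or 3 (0.0521) or Rspo1-positive replicate 2 (0.09) or 3 (0.0699), in ranges of 3.06e-06 to 0.0829 and 0.000118 to 0.248.

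**Figure D4:**
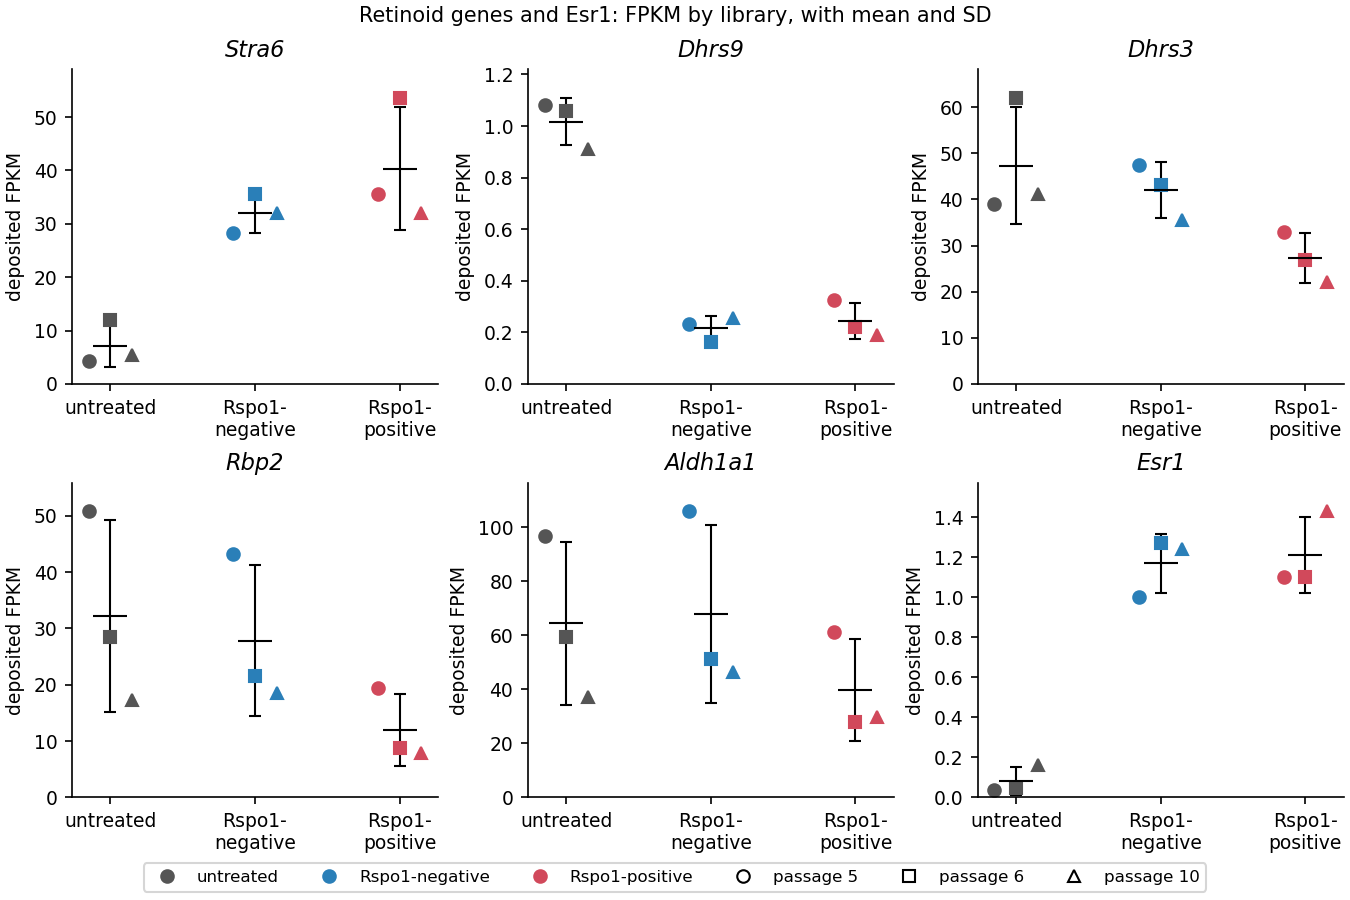
Deposited FPKM of 5 retinoid genes and Esr1 by group, 1 point per library with its passage as shape; bars give the mean and SD of 3 libraries. Stra6 and Esr1 are higher and Dhrs9 lower in every Rspo1 library than in every untreated one, while Rbp2 and Aldh1a1 are highest at passage 5 in each group.

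Hepatocyte markers were set beside these results. Of 6 tested, 2 fell and 0 rose in Rspo1-positive against untreated cells, Alb and the liver transcription factor gene Hnf4a; the summed level of the list was 175 to 423 FPKM in untreated, 253 to 514 in Rspo1-negative and 191 to 299 in Rspo1-positive libraries. Against Rspo1-negative cells 1 rose and 2 fell, and in Rspo1-negative against untreated cells 0 rose and 2 fell. In the order given, 13.2%, 38.9% and 35.5% of all genes were called. With the offset the hepatocyte markers that rose and fell were 0 and 2, 0 and 1, and 0 and 1. Without the block none was called. The part of cells with such markers in the falls of P450 genes was not tested. Of the 10 biliary markers, 2 rose and 1 fell in Rspo1-positive against untreated cells, and 0 rose and 5 fell against Rspo1-negative cells. In Rspo1-negative against untreated cells 2 rose and 0 fell. With the offset these were 2 and 2, 2 and 2, and 2 and 3, and without the block 1 and 1, 0 and 3, and 2 and 0.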

How the data were processed

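The 9 libraries of the 3 groups were used. Per the submitters' processing notes the reads were trimmed with Trimmomatic 0.35, checked with FastQC 0.11.2, aligned with STAR 2.5.1b to GRCm38 and counted with featureCounts; the annotation release, the strand setting and the order of these tools are not given in the sources used here. The deposited tables give raw counts and FPKM per gene and library. The authors' deposited comparison tables give DESeq2 results for 3 comparisons: a mean normalised signal, log2 fold changes with standard errors, a test score and p-values with adjusted p-values; their design formula is not given in the sources used here.

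Counts were tested with edgeR 4.0.16 (limma 3.58.1, R 4.3.3): TMM scaling, filterByExpr (minimum count 10, minimum total 15), quasi-likelihood F-tests over all 9 libraries with group and passage as terms, and Benjamini-Hochberg adjustment over 17011 genes at 0.05. The SE is the log2 fold change divided by the square root of F. Passage was tested over both passage coefficients. FPKM served for levels only. The labels state the passage of each library, and same-passage libraries of different groups deviated together (correlation 0.123 to 0.573, other pairs -0.476 to 0.0826). Alternatives were median-of-ratios and upper-quartile scaling, no filter, DESeq2 1.42.0, an offset for GC content and transcript length, no passage block, only the 6 libraries compared, and leaving out each library. Total counts of 23423979 to 37351448 and the spread between libraries of a group both limit the precision, and reads carry no molecular identifiers.

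The members and gene lists were chosen with earlier results of these data known. Named by rule were Cyp26b1, the 8 members with the highest mean FPKM, up to 12 called members per comparison with the largest change, the 4 members with the smallest passage p, and the gene of each list with the smallest adjusted p in each comparison. The other genes named were chosen after their values were seen. Promoter windows and motifs came from RefSeq (GRCm38.p6), and gene coordinates and the windows of 75 bases that genes share from the GENCODE annotation of GRCm38. Cyp7a1, Cyp8b1 and Cyp19a1 were not analysed here.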

Additional observations from a re-analysis of the deposited data

How the results depend on the processing

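Of 78 called results named, none of the called log2 fold changes between groups changed sign under any alternative, and the passage results are adjusted p-values without a direction; 35 kept their call under all and 43 lost it under at least 1, namely 31 without the passage block, 11 with the GC and length offset, 8 with only the 6 libraries compared, 1 each with upper-quartile scaling and DESeq2, 0 without the filter or with median-of-ratios scaling, and 4 to 21 without 1 library (21 each without Rspo1-negative replicate 1 and Rspo1-positive replicate 2). Without the replicate block the members called were 9, 5 and 5 in the 3 comparisons, against 17, 12 and 8 with it. The comparisons were Rspo1-positive against untreated, then between the Rspo1 groups, then Rspo1-negative against untreated. All genes called were 886, 4141 and 3724, against 2247, 6624 and 6039. Genes called on the partner, regulator, retinoid and outside P450 lists were 5, 14 and 19, against 21, 31 and 35. The last list holds P450 genes outside the naming rule, Cyp51 among them. With the offset 3982 and 3922 genes were called in the last pair of comparisons, and 18 list genes in the first of these. Without the filter 20 and 13 members were called in them, and 14 members and 3782 genes for passage, against 9 and 2038. Leaving out 1 library gave 9 to 18 members, 1112 to 2519 genes and 9 to 22 list genes for Rspo1-positive against untreated, 7 to 18, 3674 to 8264 and 16 to 35 against Rspo1-negative, 4 to 9, 3229 to 7427 and 20 to 38 for Rspo1-negative against untreated, and 6 to 18 members and 916 to 3690 genes for passage. The share of calls that were higher in Rspo1-negative than untreated cells was 43.8%. It was 54.2% with upper-quartile scaling, 37.5% with the GC and length offset and 36.5% without the block. The lowest share was 33.2%, without Rspo1-negative replicate 1 or untreated replicate 3. The cause of these shifts was not tested.

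Values that were not called and changed sign were those of Cyp1a1 (against untreated, -0.14 without the block in Rspo1-positive cells, and -0.03 with the offset and -0.06 without the block in Rspo1-negative cells; 0.08 with the offset between the Rspo1 groups), and of Esr1 (-0.42) and Dhrs9 (-0.25) between the Rspo1 groups and Ahr (0.24) in Rspo1-negative against untreated cells, all with the offset. Leaving out 1 library, Cyp1a1 ranged from -0.21 to 0.49, from -0.30 to 0.08 and from -0.12 to 0.58 in the 3 comparisons, Cyp26b1 from -0.46 to 0.04 in Rspo1-positive against untreated, Esr1 from -0.19 to 0.25 and Dhrs9 from -0.01 to 0.41 between the Rspo1 groups, and Cyp2d10 from -0.42 to 0.17 and Ahr from -0.21 to 0.02 in Rspo1-negative against untreated cells. With 1 animal and 3 libraries per group, members that did not pass the filter on low counts were tested only in the fit without it, and absence of a call is no evidence of equal levels.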

Other observations

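The authors' deposited tables hold 29 of the members among 15807 genes. In the authors' deposited table for Rspo1-positive against untreated cells 12 members have an adjusted p under 0.05, 1 higher and 11 lower, among 2190 genes that do. In the authors' deposited table for Rspo1-positive against Rspo1-negative cells these are 16, 1 higher and 15 lower, among 6964 genes. In the authors' deposited table for Rspo1-negative against untreated cells they are 7, 1 higher and 6 lower, among 4269 genes. For Cyp1b1, the estradiol and hydrocarbon oxidising enzyme, the authors' deposited table gives a log2 fold change of 3.25 (SE 0.27) for Rspo1-positive against untreated cells. For Cyp26b1 between the Rspo1 groups the authors' deposited table gives -0.53 (SE 0.21, adjusted p = 0.027), where edgeR with passage as a block did not pass the threshold.

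Of the 10 P450 pseudogenes left out, Cyp21a2-ps, a copy of the steroid hydroxylase gene Cyp21a1, had 32, 6 and 35 counts in the untreated, 5, 4 and 5 in the Rspo1-negative and 3, 4 and 7 in the Rspo1-positive libraries of passages 5, 6 and 10. The untreated libraries of passages 5 and 10 were above all others. Cyp4f41-ps reached at most 67 counts. The sterol demethylase gene Cyp51, which serves cholesterol synthesis in every cell, averaged 97.7, 74.1 and 77.8 FPKM in untreated, Rspo1-negative and Rspo1-positive cells. Rspo1-negative cells differed from untreated in Cyp51 by -0.47 on the log2 scale (adjusted p = 0.0153), lost with the offset (0.0619), without the block (0.283), with only those 6 libraries (0.0578) and without Rspo1-negative replicate 1 (0.0747) or 2 (0.0599) or untreated replicate 1 (0.0752), in a range of 0.00339 to 0.283 over 16 alternatives.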
